A study of Mus musculus with 51 samples.

Results

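Common myeloid progenitors (CMP) were compared with haematopoietic stem cells (HSC), both sorted by flow cytometry from the bone marrow of Mll-AF9 knock-in mice. The arrays were chosen by their titles, which gave 13 of the 51 arrays of the series: 8 arrays of Mll-AF9 CMP, where 4 replicates were each hybridised in a first and a second run, and 5 arrays of Mll-AF9 HSC, 1 for each of 5 replicates. All 9 replicates carry the knock-in, an allele in which the leukaemia fusion of the histone methyltransferase Mll (Kmt2a) with Af9 (Mllt3) is read from the Mll locus, so the controls of the comparison carry the fusion too. Wild type CMP (5 replicates on 9 arrays) and wild type HSC (5 replicates) served to test whether the population difference depended on genotype. Granulocyte-macrophage progenitors (GMP) and common lymphoid progenitors (CLP), also in the series, served in the check of the arrays. They also entered the choice of probe sets, the background level and the alternatives that used all groups, described below. The series was designed to find genes that differ between knock-in and wild type cells of each population, and the present contrast gives what separates 2 of these populations when both carry the fusion. Age, strain, zygosity and any treatment of the mice, and the surface markers of the sorts, were not stated in the sources used here. Nor do the sources tell whether each replicate was a separate mouse, and the p-values therefore measure the spread between these samples, part of which may be technical.

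HSC stand at the top of blood formation and can renew themselves, while CMP have lost that capacity and give rise to red cells, platelets, granulocytes and monocytes. Transcription factors such as Hlf, Mecom, Meis1 and Hoxa9 maintain stem cells. Gata1 and Klf1 drive the red cell programme, and Spi1 and the C/EBP factors drive the granulocyte and monocyte programme. MLL fusions keep genes such as the HoxA cluster, Meis1 and Mecom active, and in mice they can turn committed progenitors into leukaemia cells.

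Values are log2 RMA intensities of 1 probe set per gene, called levels here. Differences are Mll-AF9 CMP minus Mll-AF9 HSC on the log2 scale unless another contrast is named, and each is given with limma's standard error (SE). A gene was called where its limma p, adjusted over 18193 genes by Benjamini-Hochberg, was below 0.05. A level below 4.62 was taken as background, since 95% of 114 genes for smell and taste receptors and keratin-associated proteins had their mean below it. Where the dimmer group lay below background, the fold is given as at least a value, with each replicate of that group raised to background. Fewer cells of a kind and less RNA per cell cannot be told apart in such bulk samples.

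Because the CMP values were stored with up to 9 decimals and the HSC values with 2, the CMP arrays may have been normalised apart, and the arrays were examined first. Array medians were 4.19 to 4.23 on the 8 CMP arrays and 4.19 to 4.27 on the 5 HSC arrays, and the 95th percentiles were 9.05 to 9.15 on CMP arrays and 9.03 to 9.08 on HSC arrays. The 114 receptor and keratin-associated genes differed by a median of −0.05 between CMP and HSC (SD over genes 0.24), against 0.11 between Mll-AF9 GMP and HSC (SD 0.27). The 18 hybridisation and spike control probe sets were lower on CMP arrays, with a median difference of −0.87, but GMP (−1.29) and CLP (−0.80) were also below HSC. Over the genes, however, the median level was lower in all CMP replicates (4.90 to 4.94) than in HSC (4.99 to 5.11), GMP (5.06 to 5.10) and CLP (5.04 to 5.21) of the same genotype. The share of genes above background was 53.9% to 54.3% in CMP replicates and 54.8% to 56.2% in HSC, again without overlap. Single CMP arrays did overlap HSC, since the first run of CMP replicate 2 (54.81%) was above HSC replicate 5 (54.78%). Processing and population cannot be told apart in the CMP minus HSC difference, whereas an offset shared by all CMP arrays cancels in the test against wild type. The offsets seen were not equal in the genotypes, however. In wild type the control probe sets differed by a median of −0.27. The wild type median levels overlapped, at 4.89 to 5.01 in CMP and 4.94 to 5.16 in HSC. An offset that differs between the genotypes does not cancel.

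HSC replicates were less alike than CMP replicates, but each CMP replicate was a mean of 2 runs and each HSC replicate 1 array. Averaging narrows the spread, so r and SD are not like for like here, and its part in the gap was not tested. Pearson's r over genes was 0.982 to 0.992 between CMP replicates, 0.940 to 0.980 between HSC replicates and 0.912 to 0.963 between the populations, and the median SD of a gene was 0.19 in CMP and 0.34 in HSC. HSC replicate 1 was the closest to CMP (r 0.948 to 0.963) and HSC replicate 2 the farthest from the other HSC (r 0.940 to 0.955). HSC replicate 2 also had the highest mean spike level (12.79, others 10.63 to 11.93), and HSC replicate 5 the highest 3′ minus 5′ difference of the control genes (4.27, others 3.16 to 3.56), a measure of RNA length. Without these 2 replicates 2020 genes were called higher and 2306 lower.

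In Mll-AF9 CMP, 1601 genes were called higher than in Mll-AF9 HSC (8.8% of those tested) and 1710 lower (9.4%). Of these, 940 higher genes (5.17% of those tested) and 1141 lower genes (6.27%) differed by over 2-fold. Among the gene lists, calls were higher for 18 of 27 haem and red cell genes, 17 of 21 mitosis genes and 21 of 28 oxidative phosphorylation subunits. They were lower for 14 of 21 stem cell regulators, 11 of 18 lymphoid priming genes, 14 of 20 interferon response genes and 7 of 8 Gimap GTPases. The count of higher genes fell whenever a CMP replicate was left out. It was 1021 without CMP replicate 1, 1107 without replicate 2, 1433 without replicate 3 and 932 without replicate 4. The count of lower genes fell too, to 1275, 1292, 1511 and 1190 in the same order. Where every replicate was centred on its own median over genes instead, the median difference of all genes moved to 0.10 from −0.01, and 60.9% of the calls were higher against 48.4% in the values given here (2217 higher and 1422 lower).

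**Figure D1:**
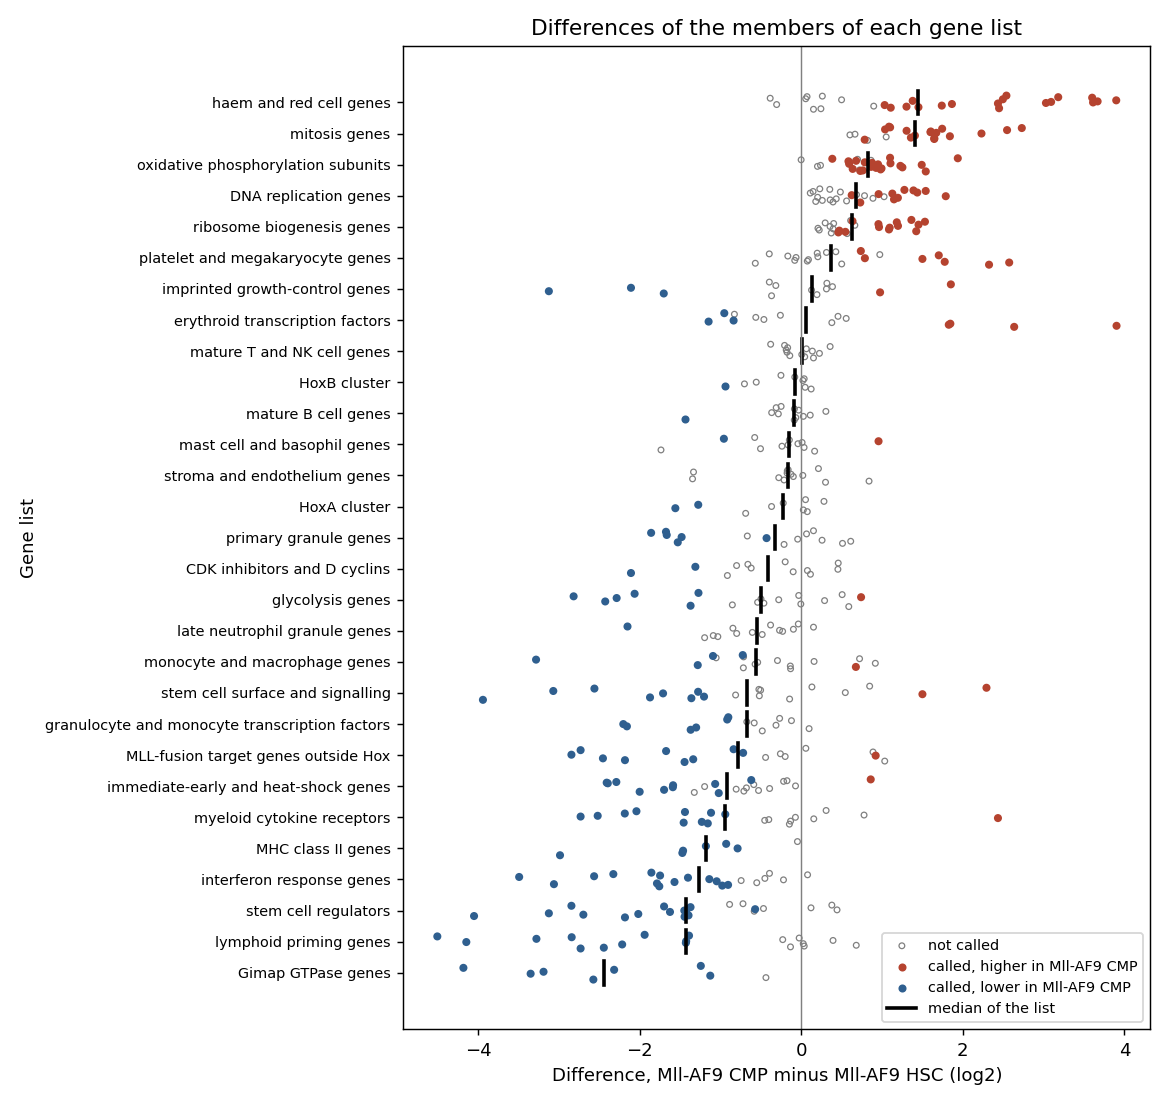
Differences of the measured members of the gene lists between Mll-AF9 CMP and Mll-AF9 HSC. The horizontal axis is the log2 difference, each point is a gene, filled points were called and the black bar is the median of the list. The median is 1.45 for haem and red cell genes at the top and −2.44 for Gimap GTPase genes at the bottom, and the median over all genes is −0.01.

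Of 27 measured haem and red cell genes, 18 were called higher in Mll-AF9 CMP and 0 lower, with a median difference of 1.45. Klf1, the erythroid factor that activates globin and membrane genes, had levels of 11.42, 11.22, 11.10 and 11.49 in CMP replicates 1 to 4, against 8.91, 7.63, 7.46, 6.04 and 6.98 in HSC replicates 1 to 5. All CMP replicates lay above all HSC replicates, by a difference of 3.90 ± 0.42 (SE) (limma adjusted p = 6.14e-05). Gata1, which acts above Klf1, had 10.06, 9.92, 9.69 and 10.05 in CMP and 8.30, 7.03, 7.28, 6.93 and 6.92 in HSC. The groups did not overlap, and the difference was 2.64 ± 0.28 (limma adjusted p = 5.49e-05). The repressor Gfi1b (1.85 ± 0.31) and the Gata1 cofactor Zfpm1 (1.83 ± 0.24) rose as well. Of the 14 erythroid transcription factors measured, these 4 were called higher and 3 lower, namely Nfe2 (−1.15), Foxo3 (−0.95) and Lmo2 (−0.84). Tal1 (0.38) and Gata2 (−0.46), which stem cells also express, were not called.

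The erythropoietin receptor gene Epor had levels of 7.90, 7.64, 8.04 and 7.55 in CMP and 6.16, 4.67, 5.63, 5.37 and 4.92 in HSC. Every CMP replicate was above every HSC replicate (2.43 ± 0.29, limma adjusted p = 0.000101). The water channel gene Aqp1 had 10.17, 9.81, 10.61 and 9.95 in CMP and 8.11, 5.33, 6.40, 5.88 and 5.45 in HSC, a difference of 3.90 ± 0.47. Its highest HSC value, like that of Klf1 and Gata1, came from replicate 1. Other raised genes encode carbonic anhydrase 1 (Car1, 3.67 ± 0.52), the Rhesus proteins (Rhag, 3.61 ± 0.64, and Rhd, 3.09 ± 0.49), the Kell antigen (Kel, at least 8.75-fold) and the erythroid membrane protein Ermap (3.03 ± 0.54). Along haem synthesis Alad (2.45 ± 0.31), Uros (1.11), Urod (1.45), Cpox (1.30) and Fech (1.74 ± 0.21) were called higher, while Ppox (0.90) and the housekeeping synthase Alas1 (0.15) were not. The call of Cpox was lost without any 1 of CMP replicates 1 to 4 or HSC replicates 3 to 5 (adjusted p 0.0607 to 0.12), and Ppox was called without HSC replicate 5 (1.16). A further probe set of Alad (0.89) and of the membrane skeleton gene Ank1 (0.32, against 2.50 in its brightest probe set) was not called. Of the 27 genes, 5 had both means below background. Slc4a1, the anion exchanger, averaged 3.49 in CMP and 3.87 in HSC. Alas2, the erythroid haem synthase, averaged 3.57 in CMP and 3.32 in HSC, and the globin gene Hba-a1 3.15 in CMP and 3.08 in HSC. The others were the membrane protein gene Epb42 and the embryonic globin gene Hbb-bh1. The globin genes Hbb-b1 and Hbb-bs were not measured here, and probe sets with several genes were left out. The globin values above therefore do not describe globin RNA as a whole. Averaged over the list, the level was 7.87 to 8.04 in the CMP replicates and 5.98 to 6.30 in HSC replicates 2 to 5, with 7.04 in HSC replicate 1. Without HSC replicate 1 the median difference of the list was 1.53.

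The sequences before the start sites of 5 raised red cell genes are given because these genes moved together and erythroid genes are known to carry GATA and KLF motifs. They are the 250 bases before the RefSeq start on GRCm38.p6, read on the strand of the gene, for Klf1 (chr8:84901732-84901981, + strand), Epor (chr9:21963577-21963826, − strand), Kel (chr6:41704326-41704575, − strand), Rhag (chr17:40810899-40811148, + strand) and Aqp1 (chr6:55336049-55336298, + strand). Capitals mark a GATA motif (the letters AGATAA, the letters AGATAG, the letters TGATAA or else the letters TGATAG, on either strand) or a KLF motif (CCNCNCCC, on either strand), and matches of the KLF motif that overlap each other are counted separately.
Klf1: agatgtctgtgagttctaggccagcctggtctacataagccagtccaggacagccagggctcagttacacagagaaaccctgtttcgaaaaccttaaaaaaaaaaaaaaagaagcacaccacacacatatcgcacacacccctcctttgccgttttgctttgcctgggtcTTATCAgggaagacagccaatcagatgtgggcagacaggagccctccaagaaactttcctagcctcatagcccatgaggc
Epor: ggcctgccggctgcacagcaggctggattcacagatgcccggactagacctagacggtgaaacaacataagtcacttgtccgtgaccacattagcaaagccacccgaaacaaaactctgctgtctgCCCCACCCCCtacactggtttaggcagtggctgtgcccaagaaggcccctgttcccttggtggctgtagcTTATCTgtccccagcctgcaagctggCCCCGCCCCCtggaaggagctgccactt
Kel: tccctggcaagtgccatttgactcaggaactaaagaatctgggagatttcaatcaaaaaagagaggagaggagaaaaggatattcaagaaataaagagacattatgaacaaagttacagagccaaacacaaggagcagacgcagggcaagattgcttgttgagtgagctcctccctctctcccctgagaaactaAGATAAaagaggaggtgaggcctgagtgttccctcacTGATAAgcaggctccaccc
Rhag: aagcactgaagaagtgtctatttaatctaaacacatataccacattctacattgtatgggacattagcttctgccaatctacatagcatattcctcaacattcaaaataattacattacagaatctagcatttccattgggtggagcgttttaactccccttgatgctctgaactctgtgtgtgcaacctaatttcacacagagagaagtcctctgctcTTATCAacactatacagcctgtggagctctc
Aqp1: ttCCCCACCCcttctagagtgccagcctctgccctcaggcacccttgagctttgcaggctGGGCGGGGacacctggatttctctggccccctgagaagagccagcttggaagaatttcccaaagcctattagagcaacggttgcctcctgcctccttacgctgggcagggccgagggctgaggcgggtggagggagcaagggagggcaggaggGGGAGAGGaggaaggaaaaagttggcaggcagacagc
Klf1 and Rhag had 1 GATA motif each, Kel had 2, Epor had 1 GATA motif and 4 KLF matches, and Aqp1 had 3 KLF matches and no GATA motif. Of the 14 haem and red cell genes called higher that had a promoter sequence, 9 (64.3%) held a GATA motif and 8 (57.1%) a KLF motif. Over the 14452 genes on the arrays with a promoter sequence the shares were 23.4% for GATA and 62.8% for KLF. For these shares a gene counted if any of its listed promoters held the motif, while only the first promoter is printed above. Klf1 is not a member of the haem and red cell list. These matches describe letters in a window and do not show binding.

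Of 20 measured platelet and megakaryocyte genes, 7 were called higher and 0 lower, with a median of 0.37. Pf4, a chemokine of platelet granules, had levels of 10.55, 10.45, 10.41 and 10.47 in CMP and 9.45, 8.72, 7.96, 6.35 and 8.27 in HSC. The CMP replicates were nearly equal and all above the HSC replicates, which were spread widely (2.32 ± 0.46, limma adjusted p = 0.00326). Vwf, the adhesive protein of platelets that some stem cells also express, rose by 1.50 ± 0.28. The platelet glycoprotein genes Gp5 (1.78 ± 0.21) and Gp1bb (2.57 ± 0.43) also rose, although a further probe set of Gp1bb (0.19) was not called. Itga2b (0.50, but 0.70 and called without HSC replicate 5), Itgb3 (−0.57) and Gp9 (−0.08) were not called.

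Of 13 measured granulocyte and monocyte transcription factors, 6 were called lower in CMP and 0 higher (median −0.67). Spi1 (PU.1) had levels of 5.97, 6.38, 5.36 and 5.69 in CMP and 6.65, 6.79, 7.46, 7.25 and 7.61 in HSC. All CMP replicates lay below all HSC replicates (−1.30 ± 0.27, limma adjusted p = 0.00478). Gfi1, a repressor needed in neutrophils and in stem cells, was at least 3.05-fold lower, and Klf4 (−2.20 ± 0.54) and Cebpb (−1.37) fell, while Cebpa (−0.48) was not called. As a median over its probe sets Cebpb was at −0.74 and not called (adjusted p = 0.167). Mpo, the myeloperoxidase of primary granules, had 10.62, 11.02, 10.92 and 9.92 in CMP and 11.73, 11.74, 10.01, 9.93 and 10.77 in HSC. Both groups were high and overlapped, and the gene was not called (−0.21 ± 0.39). Among 14 primary granule genes 6 were called lower and 0 higher (median −0.32), including the protease gene Prtn3 (−1.53 ± 0.31) and lysozyme, Lyz2 (−1.67 ± 0.21). Elane (0.51) and Ctsg (0.61) were not called. Of 16 monocyte and macrophage genes, 4 were called lower and 1 higher. The cysteine protease gene Ctss fell by 3.28 ± 0.38, and the chemokine receptor gene Cx3cr1 rose by 0.68, a call lost without CMP replicate 1 (adjusted p = 0.0509) or 2 (adjusted p = 0.0709).

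Of 19 myeloid cytokine receptor genes, 10 were called lower and Epor alone higher (median −0.94). Flt3, a receptor of early multipotent and lymphoid-primed cells, had levels of 6.45, 6.66, 6.60 and 6.37 in CMP and 9.72, 9.88, 8.79, 8.63 and 9.25 in HSC. The groups stood well apart, with a difference of −2.73 ± 0.27 (limma adjusted p = 3.95e-05). The receptor genes for interleukin-18 (Il18r1, −2.52 ± 0.32), interleukin-1 (Il1r1, −2.18 ± 0.20) and G-CSF (Csf3r, −1.23 ± 0.24) and the shared chain Csf2rb (−1.16 ± 0.34) fell too, although the call of Csf2rb was lost without CMP replicate 1, 3 or 4 or HSC replicate 1 (adjusted p 0.0559 to 0.109). Kit, the stem cell factor receptor used to sort both populations in many protocols, had 8.79, 8.36, 9.51 and 8.39 in CMP and 9.54, 8.40, 9.09, 9.11 and 8.04 in HSC. These ranges overlapped and the gene was not called (−0.07 ± 0.33).

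**Figure D2:**
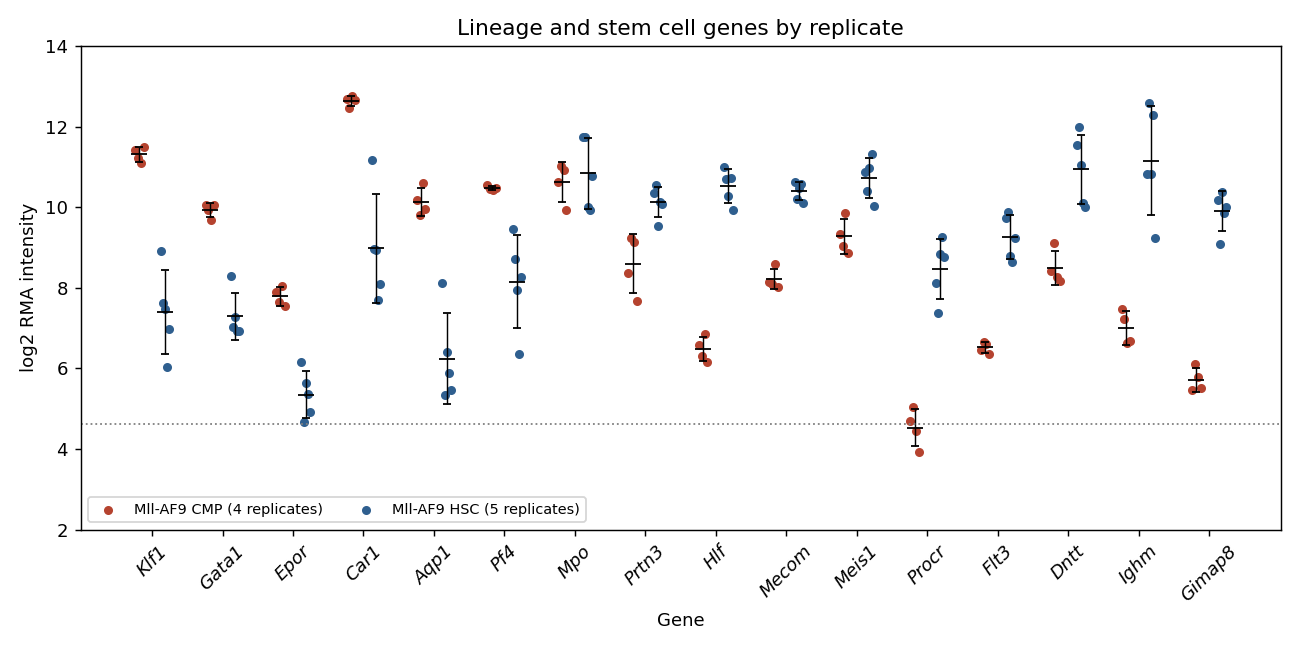
Levels (log2 RMA intensity) of 16 lineage and stem cell genes in the 4 Mll-AF9 CMP replicates (red, left of each pair) and the 5 Mll-AF9 HSC replicates (blue, right). Each point is a replicate, bars show the mean and SD, and the dotted line is the background level of 4.62. Klf1 lies between 11.10 and 11.49 in CMP and between 6.04 and 8.91 in HSC, while Mpo overlaps.

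Of 21 measured stem cell regulators, 14 were called lower in CMP, 7 were not called and 0 were higher (median −1.42), and 3 had both means below background. Hlf, a factor of stem cell quiescence, had levels of 6.58, 6.32, 6.86 and 6.16 in CMP and 11.01, 10.71, 10.28, 10.73 and 9.93 in HSC. The groups stood far apart, with a difference of −4.05 ± 0.25, or 16.6-fold lower (limma adjusted p = 2.19e-06). Meis1, the Hox cofactor that MLL fusions activate, had 9.32, 9.04, 9.86 and 8.87 in CMP and 10.86, 10.41, 10.96, 11.32 and 10.04 in HSC. It fell by 1.44 ± 0.27 without overlap of the groups (limma adjusted p = 0.00231) and stayed far above background in CMP. The factors Erg (−2.02 ± 0.32) and Etv6 (−1.62 ± 0.19), the RNA-binding protein gene Msi2 (−1.45 ± 0.20) and the imprinted gene Ndn (−3.12 ± 0.39), which restrains proliferation, also fell. Nkx2-3 (−2.70 ± 0.26), Zfp521 (at least 4.60-fold lower) and Prdm16 (−1.40 ± 0.27) were called lower on the brightest probe set, but a further probe set of each (−0.73, −0.68 and −0.50) was not called. The Polycomb gene Bmi1 (0.44 ± 0.23) was not called.

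Surface and signalling genes of stem cells were mixed, with 8 of 18 called lower and 2 higher (median −0.67). Procr, the endothelial protein C receptor used to isolate stem cells, had levels of 4.71, 5.03, 4.45 and 3.93 in CMP and 8.12, 7.36, 8.84, 9.26 and 8.75 in HSC. It was near background in CMP and at least 13.2-fold lower there (limma adjusted p = 2.31e-05). Fgd5 was at least 3.06-fold lower, and Cd34 (−2.56 ± 0.29), the endothelial adhesion gene Esam (−1.87 ± 0.23) and the Tie2 ligand gene Angpt1 (−1.71 ± 0.25) fell. Vwf (1.50) and the chloride channel regulator gene Clca3a1 (2.29 ± 0.32) were the 2 that rose. Slamf1, which encodes the stem cell marker CD150, was close to background in both populations, with means of 5.31 in CMP and 5.46 in HSC (−0.14 ± 0.29, not called). Of the genes that define HSC, Hlf, Mecom, Procr and Fgd5 were above background in every HSC replicate, and Ly6a (Sca-1) was not analysed here.

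The HSC-labelled samples also carried genes of lymphoid-primed progenitors, and these fell in CMP. Of 18 measured lymphoid priming genes, 11 were called lower and 0 higher (median −1.43). Dntt, the terminal transferase that adds bases during antigen receptor rearrangement, had levels of 8.41, 9.11, 8.28 and 8.17 in CMP and 11.53, 11.98, 11.05, 10.10 and 10.01 in HSC. All HSC values were higher (−2.44 ± 0.38, limma adjusted p = 0.00064), and CMP too stayed above background. The immunoglobulin heavy chain gene Ighm had 7.47, 7.22, 6.64 and 6.68 in CMP and 10.82, 12.59, 10.81, 12.29 and 9.22 in HSC (−4.15 ± 0.54). Ighm is covered by several probe sets, of which 1 further set was called lower and another above background (−0.15) was not. Jchain, which joins immunoglobulins, had 3.60, 3.63, 2.92 and 3.41 in CMP and 8.49, 9.92, 8.44, 9.79 and 2.82 in HSC. The gene was called lower (at least 9.69-fold, limma adjusted p = 0.0123), but HSC replicate 5 was as low as CMP. Notch1 (−2.22 ± 0.27) and Satb1 (−1.43 ± 0.36), which act in early lymphoid cells, also fell, with the call of Satb1 lost without CMP replicate 4 (adjusted p = 0.058). Rag1 (3.05 in CMP and 3.19 in HSC) and Il7r (4.15 in CMP and 3.47 in HSC) were below background in both populations, and Il7r was called higher without HSC replicate 2 (0.96). Mature B cell genes gave 1 call lower of 12 (Cd79b, −1.44 ± 0.26) and mature T and NK cell genes 0 of 13, and 10 members of each of these lists were below background in both groups. Over all genes 9.4% were called lower.

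Gimap GTPases, which support survival of lymphocytes and early progenitors, had the lowest median of the lists (−2.44), with 7 of 8 called lower. Gimap8 had levels of 5.47, 6.11, 5.78 and 5.50 in CMP and 9.09 to 10.38 in the 5 HSC replicates, an 18.1-fold difference without overlap (−4.18 ± 0.27, limma adjusted p = 2.64e-06). Of 7 MHC class II genes 6 were called lower (median −1.18), among them H2-Aa (−2.99 ± 0.28). Of 20 interferon response genes, 14 were called lower and 0 higher (median −1.27). The GTPase gene Iigp1 had 6.40, 5.03, 4.80 and 4.55 in CMP and 9.13, 8.33, 8.40, 8.31 and 9.27 in HSC (−3.49 ± 0.36, limma adjusted p = 5.12e-05). Averaged over the list, CMP replicate 1 (6.86) stood above the other CMP replicates (6.34 to 6.41) and below all HSC replicates (7.82 to 7.97).

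Of 21 measured mitosis genes 17 were called higher and 0 lower (median 1.41), of 27 DNA replication genes 11 higher and 0 lower (median 0.68), and of 24 ribosome biogenesis genes 14 higher and 0 lower (median 0.62). Kif20a, a kinesin of the dividing cell, had levels of 7.48, 7.38, 7.71 and 7.87 in CMP and 6.31, 3.84, 3.96, 3.79 and 6.49 in HSC. HSC replicates 1 and 5 came close to CMP and replicates 2 to 4 were below background (2.73 ± 0.55, limma adjusted p = 0.00381). The same order held for the list, whose mean level was 8.48 to 8.88 in CMP, 7.83 and 8.07 in HSC replicates 1 and 5, and 6.47 to 6.98 in HSC replicates 2 to 4. Ube2c (2.55 ± 0.38), which acts in mitotic exit, and the replication licensing gene Cdc6 (1.79 ± 0.33) rose, whereas Mki67 (0.82 ± 0.27) and Pcna (0.43) were not called. Without HSC replicate 2 or 5 Mki67 was called (1.03 and 0.88). Cdkn1c (p57), a cyclin-dependent kinase inhibitor of quiescent stem cells, was at least 3.01-fold lower in CMP. Of the 12 CDK inhibitors and D cyclins it and Ccnd1 (−1.31 ± 0.26) were called lower and 0 higher, while 9.4% of all genes were called lower. The nucleolar genes Nop58 (1.42 ± 0.28, but 0.87 and not called in the second run alone) and Polr1b (1.45 ± 0.27) rose, and Myc (0.57 ± 0.26) was not called, but it was called without CMP replicate 3 (0.79) and with the 3′ minus 5′ control difference as a covariate (0.76).

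Of 28 oxidative phosphorylation subunits 21 were called higher and 0 lower (median 0.82), led by the ATP synthase gene Atp5g1 with 9.13, 9.10, 8.45 and 9.26 in CMP and 7.05, 7.94, 6.69, 6.91 and 6.65 in HSC (1.94 ± 0.29, limma adjusted p = 0.000468). Of 17 glycolysis genes 6 were called lower and 1 higher (median −0.50). Ldhb had 6.63, 6.86, 6.30 and 6.76 in CMP and 9.10, 9.66, 9.12, 9.60 and 9.78 in HSC (−2.82 ± 0.22, limma adjusted p = 8.82e-06). The other lactate dehydrogenase gene, Ldha, rose by 0.74 ± 0.16, a call lost in a fit of all 8 groups (adjusted p = 0.0678). Pkm (−2.29 ± 0.25) and the glucose transporter gene Slc2a1 (−2.06 ± 0.23) fell.

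**Figure D3:**
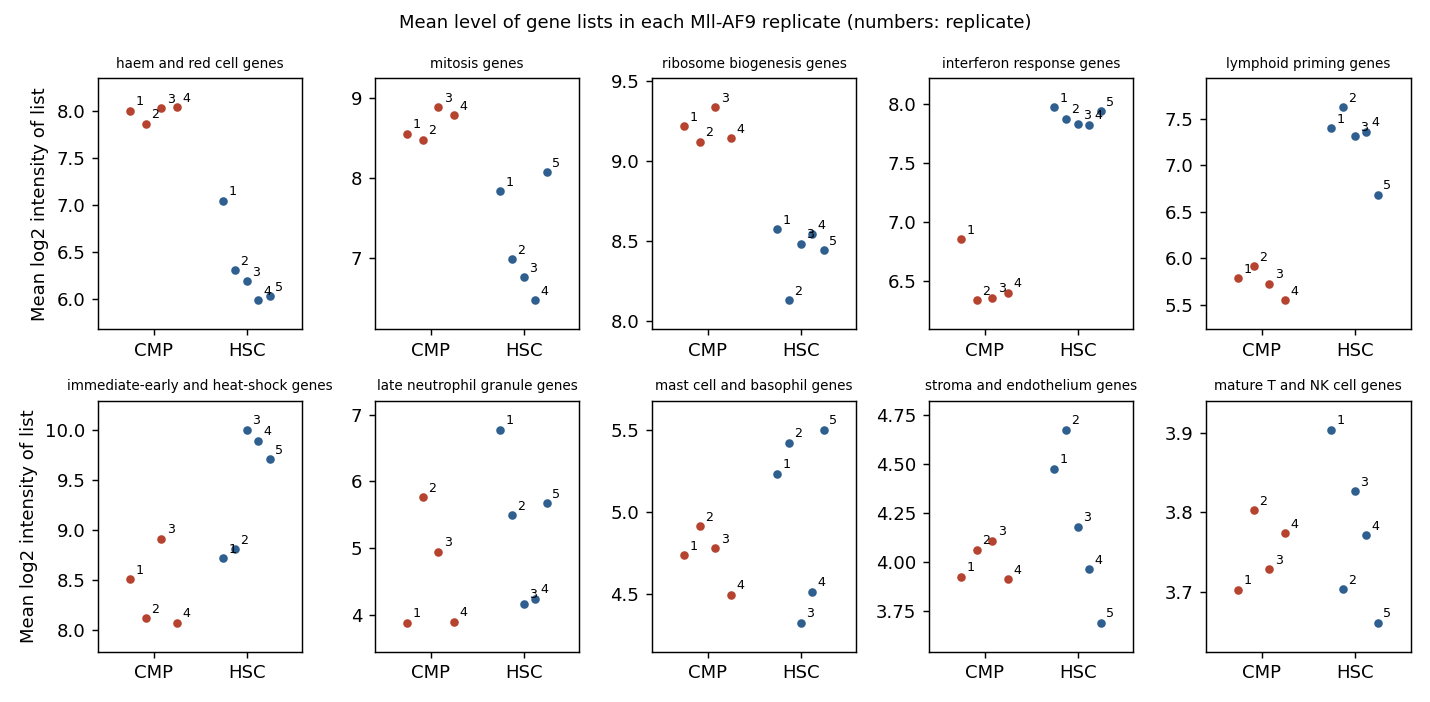
Mean level (log2 RMA intensity) of 10 gene lists in each Mll-AF9 CMP replicate (red, left) and Mll-AF9 HSC replicate (blue, right), with replicate numbers beside the points. Haem and red cell genes lie between 7.87 and 8.04 in CMP with HSC replicate 1 the highest HSC at 7.04, and late neutrophil genes range from 3.88 to 5.77 in CMP and from 4.16 to 6.78 in HSC.

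Genes that respond to handling and genes of other cells varied among replicates. Of 22 immediate-early and heat-shock genes 10 were called lower in CMP and 1 higher (median −0.91), with Zfp36 (−2.39 ± 0.32), Jun (−2.0 ± 0.33) and Fos (−1.02 ± 0.16) among the lower. The list averaged 8.08 to 8.92 in CMP, 8.72 and 8.81 in HSC replicates 1 and 2, and 9.71 to 10.01 in HSC replicates 3 to 5. The part of cell handling in these differences was not tested. Late neutrophil granule genes averaged 3.88 to 5.77 in CMP and 4.16 to 6.78 in HSC and gave 1 call lower of 14 (Anxa1, −2.16, which other cells express too), with S100a8 ranging from 3.80 to 9.34 in CMP and from 4.28 to 9.65 in HSC. Mast cell and basophil genes averaged 4.50 to 4.92 in CMP and 4.33 to 5.50 in HSC and gave 1 call in each direction of 12, with the basophil protease gene Mcpt8 at 5.35 to 5.87 in CMP and 4.59 to 9.96 in HSC. Stroma and endothelium genes averaged 3.91 to 4.11 in CMP and 3.69 to 4.67 in HSC with 0 calls of 13, although Cxcl12 reached 6.62 and 6.94 in HSC replicates 1 and 2 against 3.56 to 4.06 in CMP. Summed linear intensity of these 3 lists was 289 to 1821, 357 to 545 and 246 to 298 in CMP, and 769 to 4238, 370 to 1857 and 190 to 615 in HSC. Their part in the other differences was not tested. Over all genes 8.8% were called higher and 9.4% lower, so the few calls in these 3 lists do not exceed that share.

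The 15 called genes with the largest positive differences also included genes outside the lists. The amino acid transporter gene Slc38a5 had levels of 8.22, 8.05, 8.67 and 8.40 in CMP and 5.91, 3.94, 3.75, 3.60 and 3.20 in HSC, at least 11-fold higher (limma adjusted p = 4.83e-05), and HSC replicate 1 was again the nearest. Nxpe2 (at least 9.17-fold), Tlcd4 (4.07 ± 0.73), the aldehyde dehydrogenase gene Aldh1a7 (3.99 ± 0.73), the metallothionein gene Mt1 (3.84 ± 0.43) and the collagen gene Col5a1 (3.78 ± 0.39) followed. Zg16 (3.76 ± 0.49), the sodium pump subunit gene Atp1b2 (3.75 ± 0.44), the carboxylesterase gene Ces2g (3.68 ± 0.41), Epdr1 (3.63 ± 0.48) and the tetraspanin gene Tspan8 (3.63 ± 0.78) completed them with Klf1, Aqp1, Car1 and Mid1. Mid1, a ubiquitin ligase gene on chromosome X, had 10.39, 10.73, 11.63 and 10.52 in CMP and 5.07, 4.20, 10.50, 9.18 and 3.77 in HSC. The groups overlapped, since HSC replicates 3 and 4 were near CMP, and the call (4.27 ± 1.17, limma adjusted p = 0.0223) was lost without CMP replicates 2, 3 or 4 in turn (adjusted p = 0.0543, 0.0623 and 0.054) and without HSC replicates 2 and 5 (2.57, adjusted p = 0.0724). A further probe set of Mt1 (0.79) was not called. Some sizes depended on the choices made, over 22 alternatives with other processing or with replicates left out. The smallest difference was 0.82 for Tlcd4, 0.83 for Tspan8, 1.73 for Epdr1 and 0.82 for Mid1, each still called at that size. Mid1 lost its call in the 4 other alternatives given above.

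Among the 15 genes with the largest negative differences, the lipoprotein receptor gene Vldlr had levels of 4.03, 5.20, 5.66 and 4.68 in CMP and 8.93, 9.01, 8.41, 9.84 and 8.57 in HSC (−4.06 ± 0.35, limma adjusted p = 1.83e-05). The 4 further probe sets of it above background were called lower as well. The adhesion gene Alcam (at least 12.8-fold), Snn (at least 7.41-fold), Kbtbd11 (−3.65 ± 0.29, but −0.36 and not called as a median over probe sets), the zinc finger gene Zfp467 (at least 8.12-fold) and the glycosyltransferase gene Gcnt2 (−3.52 ± 0.38) fell. So did the lymphotoxin gene Ltb (at least 9.26-fold), the actin regulator gene Fmnl2 (at least 9.08-fold) and Gimap5 (at least 5.76-fold). Jchain, Gimap8, Ighm, Hlf, Procr and Iigp1, described above, made up the 15. Over the 22 alternatives the weakest difference was −1.74 for Snn, −1.53 for Gcnt2 and −1.95 for Zfp467, each still called. Over all named called genes, 104 had a further probe set above background, and of those 165 probe sets 119 were called the same way, 45 were not called and 1 was called the opposite way (Jmjd1c).

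Hox genes and other targets of MLL fusions were measured separately, because the fusion acts on them. Of 9 HoxA genes 2 were called lower in CMP and 0 higher (median −0.22), and 4 had both means below background. Hoxa5 fell by 1.56 ± 0.28. Hoxa7 (−0.37) and Hoxa10 (−0.22) were not called. Of 9 HoxB genes, Hoxb3 (−0.95) was called lower and 0 higher (median −0.08), which is close to the 9.4% of all genes called lower. Both means were below background for 7 of these HoxB genes. The call of Hoxb3 was lost without any 1 of CMP replicates 1 to 4 or HSC replicates 1, 4 and 5 (adjusted p 0.0558 to 0.114). Of 16 MLL-fusion targets outside Hox 9 were called lower and 1 higher (median −0.78). Sox4 (−1.67 ± 0.25), Mef2c (−1.34 ± 0.20) and Eya1 (at least 2.56-fold) fell, while Myb (−0.26) and Cdk6 (−0.20), high in both populations, were not called. The 1 higher call, Jmjd1c (0.92), was opposite in a further probe set (−2.28).

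The same contrast in wild type mice called 2497 genes higher in CMP (13.7% of those tested) and 2348 lower (12.9%), of which 924 (5.08% of those tested) and 1174 (6.45%) differed by over 2-fold. Of the genes called higher in Mll-AF9, 1363 were also called higher in wild type (85.1% of the Mll-AF9 calls and 54.6% of the wild type calls), and of those called lower 1430 (83.6% and 60.9%), while 0 were called in opposite directions. The differences in the 2 genotypes correlated across genes with r = 0.891, as a description only, because genes are not replicates and both contrasts share the CMP and HSC array processing. List medians were close, at 1.45 in Mll-AF9 and 1.55 in wild type for haem and red cell genes and −1.42 and −1.75 for stem cell regulators. For lymphoid priming genes they were −1.43 and −2.29, for mitosis genes 1.41 and 0.82, and for the HoxA cluster −0.22 and −0.93, but list differences between genotypes were not tested.

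**Figure D4:**
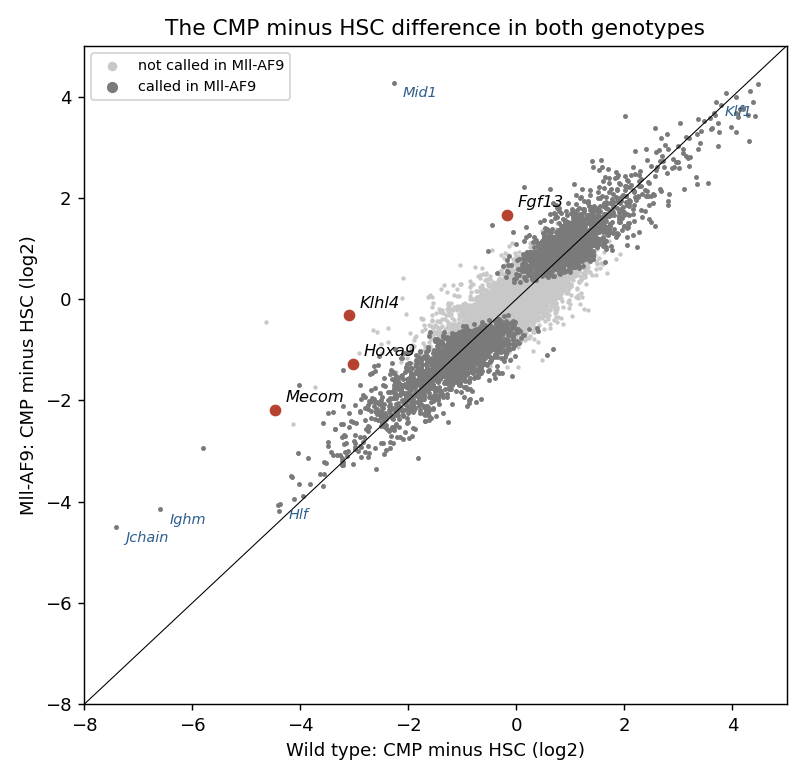
CMP minus HSC difference in Mll-AF9 (vertical axis, log2) against wild type (horizontal axis, log2) for 18193 genes. Dark points were called in Mll-AF9, red points are the 4 genes whose difference depended on genotype and the line marks equal differences. Mecom lies at −2.18 in Mll-AF9 and −4.48 in wild type, and Klf1 at 3.90 and 3.69.

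Tested directly, the difference depended on genotype for 4 genes, each less negative or more positive in Mll-AF9 (0.022% of those tested), and for 0 genes in the other direction (0.0%). At an unadjusted limma p below 0.05 the counts were 378 (2.08%) and 364 (2.0%). Hoxa9, the main HoxA target of MLL fusions, had levels of 11.41, 11.48, 11.93 and 11.35 in Mll-AF9 CMP and 12.83, 12.64, 13.16, 12.92 and 12.56 in Mll-AF9 HSC, a difference of −1.28 ± 0.15. In wild type it had 9.38, 9.42, 9.07, 8.84 and 8.95 in CMP and 12.57, 12.53, 12.13, 12.08 and 11.52 in HSC, a difference of −3.03 ± 0.19. The HSC of the 2 genotypes barely overlapped, as the lowest Mll-AF9 value (12.56) lay just under the highest wild type value (12.57). All other Mll-AF9 HSC values were above every wild type HSC value. The CMP did not overlap, and the differences differed by 1.76 ± 0.26 (limma adjusted p = 0.00949). With the median over the probe sets of a gene the value was 0.89 (adjusted p = 0.491), and in a fit of all 8 groups the adjusted p was 0.0881.

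Mecom (Evi1), a stem cell factor that MLL fusions activate, had levels of 8.15, 8.10, 8.59 and 8.03 in Mll-AF9 CMP and 10.63, 10.21, 10.48, 10.57 and 10.11 in Mll-AF9 HSC (−2.18 ± 0.19, limma adjusted p = 1.83e-05). In wild type it had 4.30, 4.41, 4.11, 4.03 and 4.63 in CMP and 9.69, 9.27, 8.18, 8.98 and 7.76 in HSC (−4.48 ± 0.31). All Mll-AF9 CMP were above background while wild type CMP had a mean below it (4.30), and the differences differed by 2.29 ± 0.40 (limma adjusted p = 0.0371). This call was lost in most of the alternatives (adjusted p up to 0.13 where the same probe set was kept). The other probe sets of Mecom were at background, and their use in a median over probe sets gave 0.03 (adjusted p = 0.999). Prdm16, the relative of Mecom, differed by 1.82 ± 0.38 in the same direction but was not called (adjusted p = 0.175).

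Fgf13, a gene on chromosome X for an intracellular fibroblast growth factor homologue, had levels of 4.86, 5.04, 5.69 and 5.06 in Mll-AF9 CMP and 4.34, 3.58, 3.24, 3.12 and 3.19 in Mll-AF9 HSC (at least 1.46-fold higher). In wild type all replicates were below background, between 3.26 and 3.66 in CMP and between 3.02 and 3.77 in HSC, and the differences differed by 1.85 ± 0.30 (limma adjusted p = 0.0234). The second probe set of Fgf13 was below background, and the call was lost in 14 of 32 alternatives (adjusted p up to 0.403). Klhl4, also on chromosome X, was below background in Mll-AF9 CMP (2.29 ± 0.07, SD, n = 4) and Mll-AF9 HSC (2.06 to 3.61) and in wild type CMP (2.80 ± 0.20, SD, n = 5), against 6.76, 6.21, 4.95, 5.74 and 5.89 in wild type HSC. The difference of 2.80 ± 0.38 (limma adjusted p = 0.00507, and 0.154 in a fit of all 8 groups) thus went with a level above background in wild type HSC only among the 4 groups. Xist was at 10.65 to 12.06 in all Mll-AF9 replicates of both populations, whereas 3 of 5 wild type CMP (3.79 to 3.93) and 2 of 5 wild type HSC (3.86 and 4.31) had it below background, so the wild type groups mixed the sexes and the Mll-AF9 groups did not. Its part in the genotype test was not tested.

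**Figure D5:**
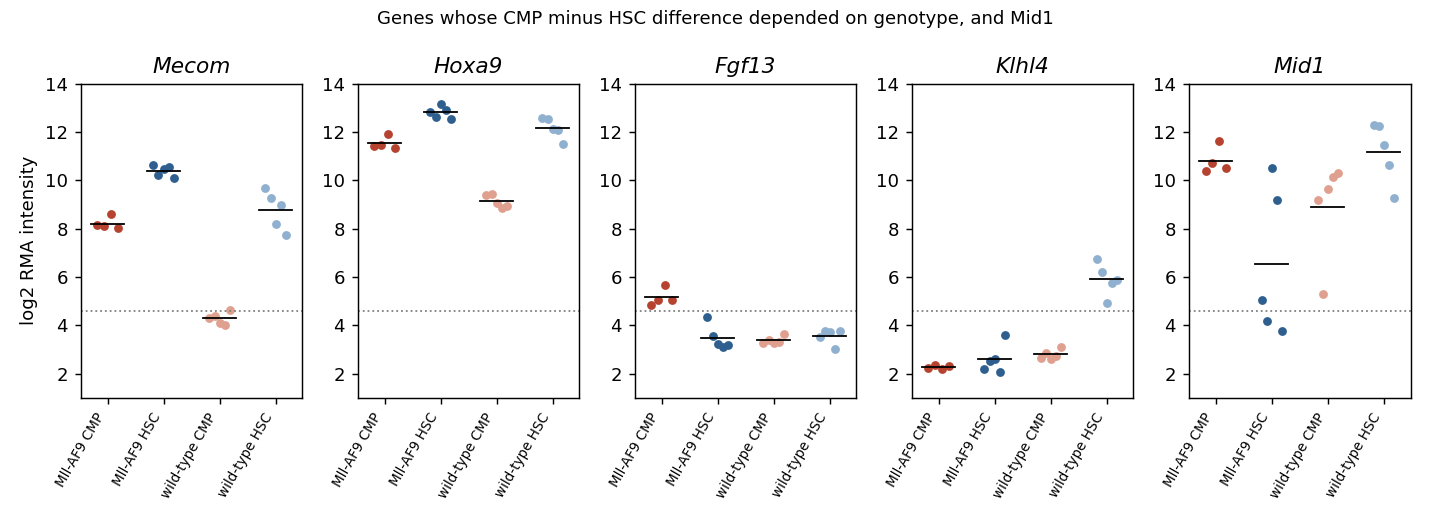
Levels (log2 RMA intensity) of the 4 genes whose CMP minus HSC difference depended on genotype, and of Mid1, in Mll-AF9 CMP, Mll-AF9 HSC, wild type CMP and wild type HSC (left to right in each panel). Points are replicates, black bars are means and the dotted line is the background level. Mecom is at 8.03 to 8.59 in Mll-AF9 CMP and 4.03 to 4.63 in wild type CMP, and Mid1 spreads from 3.77 to 10.50 in Mll-AF9 HSC.

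Mid1 was not called in the genotype test (6.54 ± 1.57, adjusted p = 0.351), with 9.21, 5.31, 9.64, 10.13 and 10.32 in wild type CMP and 12.30, 12.23, 11.47, 10.65 and 9.29 in wild type HSC.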

How the data were processed

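The authors deposited 1 RMA intensity per probe set and array on a linear scale, named RMA per the submitters' processing notes; no source used here gives its version or says if the arrays were normalised in 1 set. Total RNA was amplified in a 2-cycle reaction, per the labels' protocols. No depth exists for arrays, and their number limits the precision.

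Log2 was taken and the runs of a CMP replicate were averaged, which left 43 replicates. Of 45101 probe sets, 64 were controls, 34945 had a single gene and 10092 had several genes or none. Symbols came from the GRCm38.p6 gene table. For a gene with several probe sets, the set was kept that was brightest on average over the 43 replicates (18193 genes). Groups were compared in limma 3.58.1 (R 4.3.3; lmFit, eBayes with trend), without block or covariate, and the script was tested on simulated data. The genotype test is the contrast of the 2 contrasts in 4 groups. The genes named are the 15 called genes with the largest difference in each direction whose brighter group was above background (clone names passed over), up to 8 per direction in the genotype test, and members of the gene lists. The comparison, the members of the 31 lists and the rules were chosen with earlier results of these data known. Promoters are RefSeq's. Replicate numbers gave no sign of pairing, as same-numbered Mll-AF9 CMP and HSC replicates deviated together with r of −0.17 to 0.15. Differently numbered replicates had r of −0.27 to 0.27. With only 4 same-numbered pairs, the check cannot exclude that some of them share a mouse.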

Additional observations from a re-analysis of the deposited data

Results flagged for a closer look

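In 24 of 338 checks 1 replicate lay far from the others of its group, and chance alone marks about 1 in 20. Among Mll-AF9 CMP, replicate 3 stood apart in 8 genes, with Mt1 at 9.59 (others 10.52 to 10.56), Zg16 at 7.72 (9.21 to 9.25), Ank1 at 8.12 (9.25 to 9.41) and Gfi1b at 8.09 (8.67 to 8.70) below the others. It was above them for Bmi1 (10.24, others 9.61 to 9.68), Cpox (8.34, 7.02 to 7.10), Ldha (10.54, 10.16 to 10.22) and Mki67 (12.03, 11.57 to 11.62). CMP replicate 2 was high for Cd79b (5.21, others 4.72 to 4.79), and CMP replicate 1 for Hoxb3 (4.64, 4.16 to 4.24) and the mean level of interferon response genes (6.86, 6.34 to 6.41).

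Among Mll-AF9 HSC, replicate 1 was high for Slc38a5 (5.91, others 3.20 to 3.94), Gata1 (8.30, 6.92 to 7.28), Cdc6 (8.40, 6.62 to 7.10) and Fech (8.49, 7.71 to 7.90). HSC replicate 2 was high for Il7r (4.59, 2.99 to 3.33), Rag1 (4.98, 2.59 to 2.96), Itgb3 (7.54, 5.70 to 6.10) and the mean levels of mature B cell genes (4.57, 3.99 to 4.07) and of CDK inhibitors and D cyclins (7.46, 7.11 to 7.19), and low for Zfp521 (6.19, 6.93 to 7.17). HSC replicate 5 was low for Jchain (2.82, others 8.44 to 9.92), Ctss (8.10, 9.42 to 9.91) and Hoxa10 (4.49, 5.80 to 6.25).

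The CMP minus HSC difference itself differed between Mll-AF9 and wild type for Klhl4 (2.80), Mecom (2.29), Fgf13 (1.85) and Hoxa9 (1.76), given as the Mll-AF9 value less the wild type value (log2).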

How the results depend on the processing

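Leaving out 1 replicate at a time, 932 to 1876 genes were called higher and 1190 to 1954 lower in Mll-AF9 CMP. With the median over the probe sets of a gene, 756 were called over 2-fold lower. With the 3′ minus 5′ control difference as a covariate, the wild type contrast called 1652 genes higher and 586 over 2-fold higher. The genotype test called 13 genes higher and 2 lower with every run kept, 2 higher with the median over probe sets and 0 higher in a fit of all 8 groups. It called 2 to 10 higher and 0 to 1 lower without 1 replicate, and 1 lower without HSC replicates 2 and 5, an alternative chosen after seeing the data. The replicate block gave 1739 higher and 1771 lower in Mll-AF9 and 6 higher and 2 lower in the genotype test. Cpox and Cx3cr1 lost their call under the block (adjusted p = 0.0756 and 0.052). The causes were not tested.

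Some values changed sign. With the median over probe sets these were Ighm (0.0419, against −4.15), Jmjd1c (−0.0391, against 0.92), Cdk6 (0.235) and Slamf1 (0.248). With replicates centred on their medians they were Gp9 (0.0318) and Kit (0.0403), in the first run Gp9 (0.0634) and Rag1 (0.0109), and in the second run Alas1 (−0.0294) and Cdk6 (0.113). Without HSC replicates 2 and 5 they were Klhl4 (0.00731), Alas1 (−0.0300), Alas2 (−0.00562), Mpo (0.0668) and Rag1 (0.280). Without 1 replicate, Alas1 ranged from −0.104 to 0.370, Gp9 from −0.328 to 0.0655, Kit from −0.321 to 0.104, Mpo from −0.439 to 0.0201, Rag1 from −0.282 to 0.314 and Slc4a1 from −0.618 to 0.0125. Of these genes Ighm and Jmjd1c were called in the values given in the report. The number of arrays limits the precision, and genes near background are the least certain.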
